A study of Mus musculus with 24 samples.

Results

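The genes described here are the 4 MEF2 genes (Mef2a, Mef2b, Mef2c and Mef2d), the 4 class IIa histone deacetylases (Hdac4, Hdac5, Hdac7 and Hdac9) and 2 cofactors (Mamstr and Lmcd1), 10 of 21887 protein-coding mouse genes. They were chosen by name. Each was taken at its position on the mouse build mm10 as the gene body plus 20 kb on each side, here called its window. MEF2 proteins are transcription factors that bind short AT-rich sites through a MADS domain and switch on muscle, cardiac and activity-dependent genes. Class IIa deacetylases bind MEF2 proteins and hold their target genes silent, and kinases that act on the deacetylases send them out of the nucleus with 14-3-3 chaperones. Mamstr, also called MASTR, is a coactivator of MEF2, and Lmcd1 encodes a LIM-domain protein that restrains GATA factors and acts in cardiac hypertrophy.

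The series mapped proteins on chromatin by CUT&RUN, an assay that sequences DNA cut free around a protein by a nuclease held on its antibody. The cells were iMGT-Myh6-eGFP-MEFs, an established line of mouse embryonic fibroblasts that carries inducible Mef2c, Gata4 and Tbx5, a trio that drives fibroblasts toward a cardiomyocyte-like state, and an eGFP reporter of Myh6. All day 1 cells were plated at 300000 per well, transfected with siRNA, given 1 µg/mL doxycycline the next day and collected 1 day after induction, with about 250000 cells used per condition. MEF2C was mapped at day 1 under siJunb (n = 3, against the AP-1 factor JUNB), siH1f0 (n = 3, against the gene of linker histone H1.0) and siControl (n = 2). H1.0 and the heterochromatin mark H3K9me3 were mapped under siControl at day 1 (n = 2 each) and in the ground state, which was not reprogrammed (n = 2 each). IgG samples were not analysed here, the knockdowns were not checked, and the fibroblast label could not be set against marker genes because the lists hold no expression values. The labels call the replicates biological without saying what was repeated, so every p-value measures only how far these samples differ among themselves, and part of that may be technical.

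MEF2C lists ranged between 11731 and 49011 peaks and between 13.4 and 89.8 Mb in covered length. They fell into 2 kinds by how their files were named. Lists of the first naming series (siJunb replicate 1, siH1f0 replicate 3 and siControl replicate 1) held 11731 to 17871 peaks, and those of the second held 22870 to 49011. The labels do not say what the naming series stands for, and each group has both kinds. For H1.0 and H3K9me3, each group likewise has 1 list of each kind. A percentile below is the place of a peak's maximum signal among the peaks of its own list, and 99 means that the peak was higher than about 99% of them. Maximum signal and percentiles are the authors' peak scores and were read only within a list.

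Sequences of 3 promoters are shown first, because each lay under MEF2C peaks in at least 6 of the 8 lists and holds a site of interest next to the start. They run from 250 bases before to 50 bases after the start site, 5′ to 3′ in the direction of the gene, and come from RefSeq on GRCm38.p6, the assembly of mm10. Capitals mark a MEF2 site (the MADS-domain consensus) in Hdac5 and Mef2a, and an AP-1 site (TGANTCA) in Hdac9. Both motifs read the same on either strand in their consensus form, and they do not overlap each other in these promoters.
Hdac5 promoter, chr11:102230123-102230422, minus strand: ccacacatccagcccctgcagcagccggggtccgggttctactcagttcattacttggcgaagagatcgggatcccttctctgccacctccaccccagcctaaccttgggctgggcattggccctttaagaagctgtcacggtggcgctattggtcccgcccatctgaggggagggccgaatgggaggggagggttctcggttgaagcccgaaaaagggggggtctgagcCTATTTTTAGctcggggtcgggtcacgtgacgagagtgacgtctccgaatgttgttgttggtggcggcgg
Mef2a promoter, chr7:67372809-67373108, minus strand: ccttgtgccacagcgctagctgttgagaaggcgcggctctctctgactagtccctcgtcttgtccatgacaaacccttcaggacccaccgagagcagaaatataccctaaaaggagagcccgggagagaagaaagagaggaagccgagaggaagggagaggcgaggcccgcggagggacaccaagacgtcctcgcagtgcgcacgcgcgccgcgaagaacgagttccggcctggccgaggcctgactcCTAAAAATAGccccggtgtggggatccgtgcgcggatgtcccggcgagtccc
Hdac9 inner promoter, chr12:34528840-34529139, minus strand: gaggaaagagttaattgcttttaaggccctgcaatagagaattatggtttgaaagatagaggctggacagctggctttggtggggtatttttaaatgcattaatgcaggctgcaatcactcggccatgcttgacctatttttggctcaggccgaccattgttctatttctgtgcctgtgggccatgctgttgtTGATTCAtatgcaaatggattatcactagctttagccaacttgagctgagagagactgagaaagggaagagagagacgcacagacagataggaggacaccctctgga
The MEF2 site began 20 bases before the start in Hdac5 and 2 bases before it in Mef2a, and the AP-1 site of Hdac9 began 57 bases before the inner start. Among all 32851 promoters of the same length, 3.19% held the MEF2 site and 7.81% held the AP-1 site. Of the 885 promoters (2.69%) with a MEF2C peak in all 8 lists, 6.10% held the MEF2 site. The 10 genes have 16 listed promoters. The MEF2 site occurred in 2 of them and the AP-1 site in 3. The inner Hdac9 promoter holds no MEF2 site by this consensus. Neither site occurred in the Hdac4 promoter, under MEF2C peaks in 7 lists, or in a pair of Hdac7 promoters, under peaks in 6 lists each. A match describes letters in this window and does not show binding.

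MEF2C peaks were found in the windows of 9 of the 10 genes in both siControl lists, and all but Mamstr had them. Over all protein-coding genes, 39.3% of windows did so. In 8 of the 10 windows a peak was present in all 8 lists, against 24.4% of all windows. Mef2a had a peak in 7 lists, with none in siJunb replicate 3, and Mamstr had one in 4 lists. The windows of the 10 genes were longer than most, with a median of 94.3 kb against 57.2 kb, and the part of length in these counts was not tested. After merging overlapping peaks of the 8 lists, the 10 windows held 101 of 77240 regions, with 15 in all 8 lists, 30 in both siControl lists and 40 in 1 list. In shares, 29.7% of these regions were in both siControl lists and 14.9% in all 8, against 14.0% and 5.58% of all regions. Hdac4 had the most regions (25), then Hdac9 (18), Hdac5 (12), Mef2c and Hdac7 (11 each), Mef2a (7), Mef2b and Mef2d (6 each), Lmcd1 (4) and Mamstr (1).

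**Figure D1:**
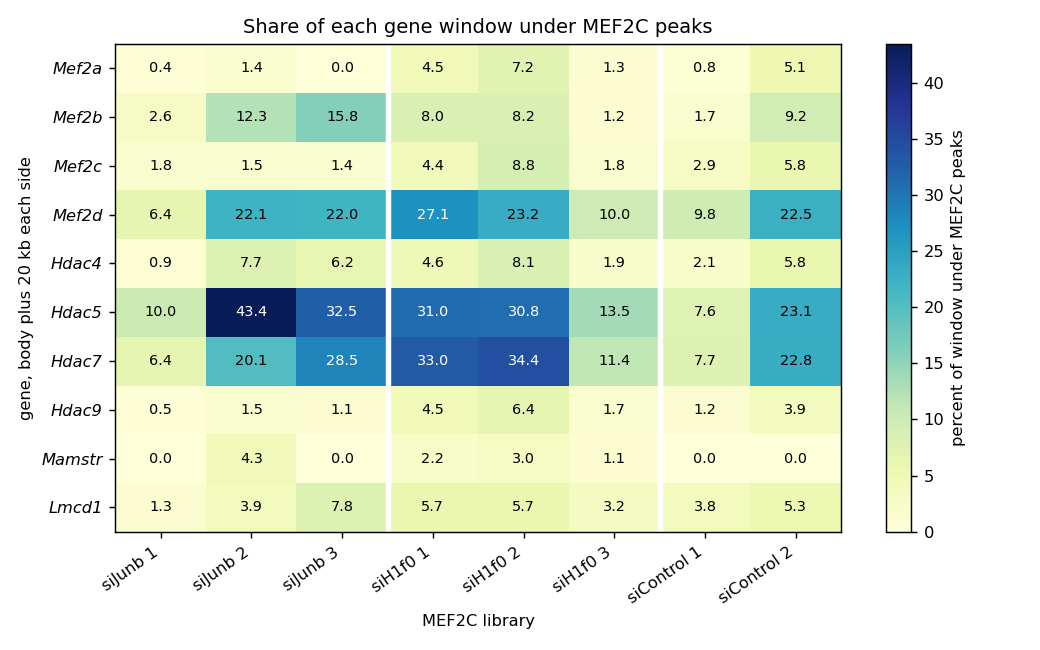
Share of each gene window (rows) that lay under MEF2C peaks in each of the 8 libraries (columns: 3 siJunb, 3 siH1f0, 2 siControl), in percent and by colour. Hdac5, Hdac7 and Mef2d had the highest shares, the libraries siJunb 1, siH1f0 3 and siControl 1 had low shares in most rows, and Mamstr is at 0 in both siControl libraries.

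Among the MEF2 genes, Mef2c had its strongest MEF2C peak deep inside its own gene. The region, chr13:83601450-83606290, lay 30.2 kb after the third listed start and was present in all 8 lists. Its peak stood at percentiles 95.6, 99.2 and 98.2 under siJunb, 98.9, 99.3 and 97.8 under siH1f0, and 98.3 and 99.5 under siControl. The maxima of the 8 peaks fell within 237 bp of each other, so the libraries placed the summit at the same spot. The authors' maximum signal there was 17, 32 and 32 under siJunb, 90, 129 and 28 under siH1f0, and 39 and 221 under siControl, values that also carry each library's depth. A second region, chr13:83565079-83568101, lay 7.70 kb before the third start and was held by 1 siJunb, 2 siH1f0 and both siControl lists. None of the 3 listed Mef2c promoters was covered in more than 2 lists.

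The cells also carry a Mef2c transgene, whose DNA can yield reads that map to the native exons. Mef2c held 4 MEF2C peaks under 600 bp, a width rare among MEF2C peaks, and all 4 came from lists of the first naming series. In siJunb replicate 1 they were chr13:83592778-83592982 (205 bp, percentile 93.5) and chr13:83662306-83662628 (323 bp, percentile 92.1). In siControl replicate 1 they were chr13:83633055-83633242 (188 bp, percentile 86.3) and chr13:83662271-83662628 (358 bp, percentile 97.8). The second peak of each pair ended at the same base, 83662628, near the 3′ end of the gene. Peaks this short made up 3.39% of the siJunb replicate 1 list, 10.1% of the siControl replicate 1 list and 0.061% to 2.26% of the other 6 MEF2C lists. Tbx5, another gene that the line carries in inducible form, had a peak of 564 to 586 bp with nearly the same edges, around chr5:119882911-119883487, in siJunb replicate 2, siH1f0 replicates 1 and 3, and siControl replicate 2. Gata4, also carried in inducible form, had no MEF2C peak under 600 bp in its window in any list. Exon positions were not used here, so whether the short Mef2c and Tbx5 peaks match exons was not tested. The strongest Mef2c region was 4841 bp wide when merged and was found in both naming series.

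**Figure D2:**
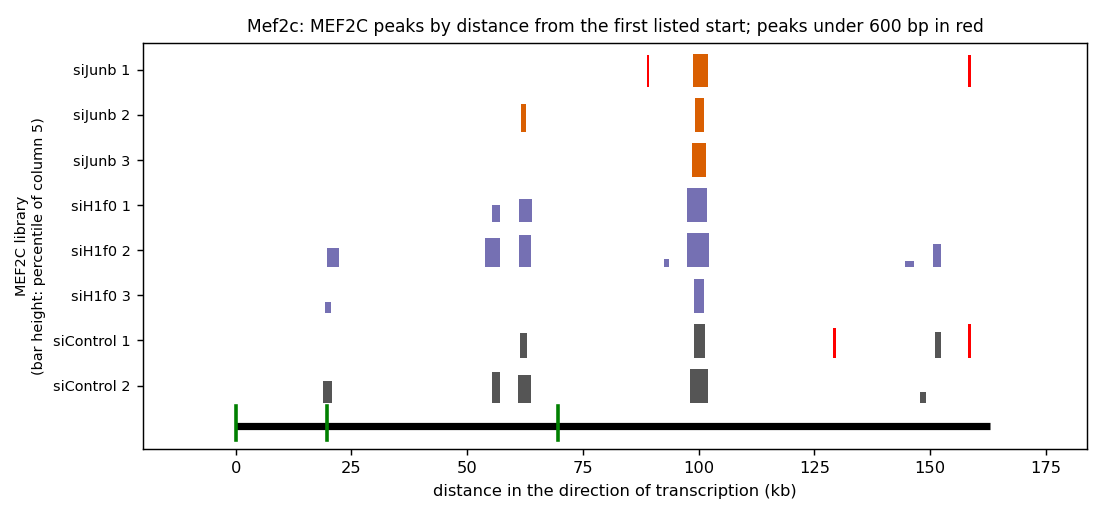
MEF2C peaks in the Mef2c window by library (rows) against the distance in kb from the first listed start, with bar height showing the percentile within the list, the gene body in black and listed starts in green. The strongest peak lies near 100 kb in all 8 libraries, and peaks under 600 bp (red) appear in siJunb 1 and siControl 1.

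Mef2a, a broadly expressed MEF2 gene, had a MEF2C peak over its start in 6 lists, with the printed MEF2 site under it. The start region, chr7:67371001-67375099, was held by siJunb replicate 1, by all 3 siH1f0 lists and by both siControl lists. Its percentile was 74.4 in that siJunb list, 85.7, 72.9 and 43.4 under siH1f0, and 76.2 and 72.2 under siControl. The summits lay 60.5 to 376.5 bp before the start, which is 63.0 to 379 bp from the middle of the MEF2 site. An upstream region 18.0 kb from the start, chr7:67389412-67391561, was held by siJunb replicate 2, all siH1f0 and both siControl lists, at percentiles from 64.0 to 90.3. In both regions 1 of 3 siJunb lists kept the peak, a different one each time.

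Mef2d, the MEF2 gene best known from muscle and neurons, had regions on all sides of its start. The region over and before the start, chr3:88137131-88147329, was in all 8 lists with summits about 1.53 kb upstream, at percentiles 80.6, 94.7 and 91.6 under siJunb, 90.1, 90.3 and 76.6 under siH1f0, and 84.5 and 87.2 under siControl. A region 7.92 kb inside the gene and another past its end were also in all 8 lists. The upstream region chr3:88131848-88134427, 8.87 kb before the start, was held by no siJunb list, by all 3 siH1f0 lists and by both siControl lists. Its percentiles were 70.9, 83.1 and 43.4 under siH1f0, and 60.2 and 75.8 under siControl, so it was a middling peak in those lists.

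Mef2b, a MEF2 gene best known from germinal-centre B cells, had 1 region in all 8 lists, and that region overlapped the starts of Borcs8 and Rfxank, 13.3 kb before the Mef2b start. Its percentiles ran from 42.4 to 86.6 over the lists. Over the Mef2b promoter itself a peak was present in siJunb replicate 3 and in no other list.

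The highest MEF2C peak of the 10 genes lay in the region at the inner start of Hdac9 in 7 of the 8 lists, the exception being siJunb replicate 2, where an Hdac5 peak was higher. Hdac9 encodes a class IIa deacetylase and is itself a known MEF2 target. The merged region, chr12:34515194-34534074, had 2 summits in every list. The one at the inner start stood 204.5 to 316 bp before it, just beyond the printed promoter in 7 lists and inside it in siJunb replicate 2. Its percentiles were 99.4, 99.6 and 99.5 under siJunb, 99.8, 99.7 and 99.8 under siH1f0, and 99.9 and 99.8 under siControl. It ranked 63, 196 and 129 under siJunb, 44, 93 and 31 under siH1f0, and 21 and 62 under siControl within lists of 11731 to 49011 peaks. Ranks from lists of unequal length show no change between groups.

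The other Hdac9 summit lay 11.8 kb inside the gene from that start in most lists. It stood at percentiles 93.5, 97.7 and 98.2 under siJunb, 99.8, 99.8 and 99.7 under siH1f0, and 99.1 and 99.8 under siControl. At both summits all 3 siJunb percentiles were below the other 5. The nearest values were 98.2 against 99.1 at this summit and only 99.6 against 99.7 at the inner start. The siJunb values come from lists of both naming series. How many regions elsewhere show the same order was not counted, and no test was made of percentiles. The outer Hdac9 start, at the far end of the 869.5 kb gene, had no MEF2C peak in any list. Further regions 29.7 and 45.2 kb into the gene from the inner start were held by 2 siJunb lists each and by all siH1f0 and siControl lists.

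**Figure D3:**
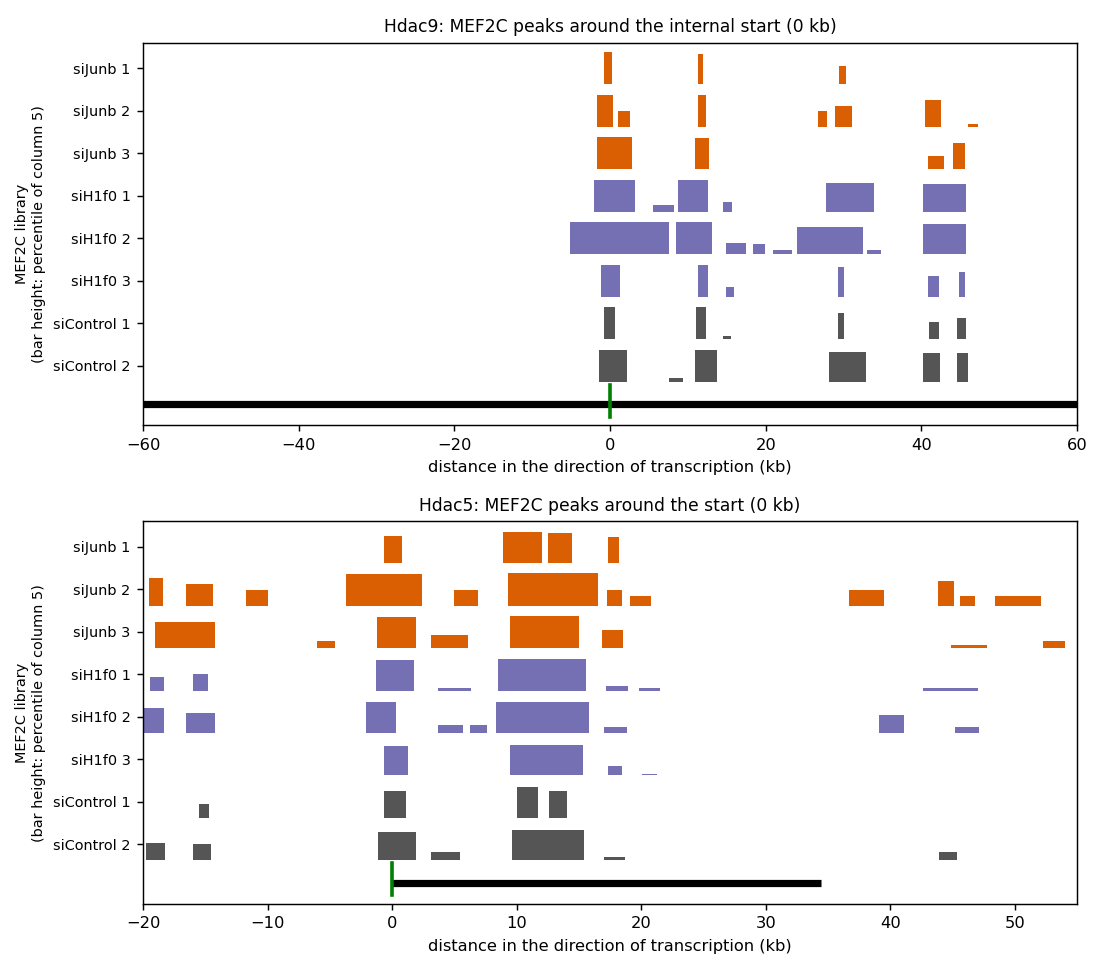
MEF2C peaks around the inner start of Hdac9 (top) and the start of Hdac5 (bottom) by library (rows), against the distance in kb in the direction of transcription, with bar height showing the percentile within the list. Both starts carry a peak in all 8 libraries, and a second tall peak lies inside each gene.

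Hdac5, a deacetylase gene with high expression in heart and brain, had 2 regions in all 8 lists. The stronger, chr11:102213627-102221862, lay 11.2 kb inside the gene at percentiles 96.3, 99.8 and 98.6 under siJunb, 98.2, 96.8 and 93.6 under siH1f0, and 97.0 and 95.3 under siControl. Its summits fell within 131 bp of each other. The region at the start, chr11:102227813-102233913, stood at percentiles 84.9, 97.4 and 96.8 under siJunb, 93.5, 96.0 and 91.8 under siH1f0, and 82.2 and 89.4 under siControl. Its summits lay 6.5 to 199 bp from the middle of the MEF2 site printed above, the closest in siControl replicate 1. The Hdac5 window had the highest covered share of the 10 in siJunb replicate 2, 43.4%, and it also takes in Hrob, Lsm12 and G6pc3, to which some of its outer peaks may belong.

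Hdac4, the deacetylase gene best known from cartilage and muscle, had 25 regions, 13 of them in a single list. The region at its start, chr1:92180000-92185158, was in all 8 lists at percentiles 90.3, 96.0 and 97.8 under siJunb, 93.1, 95.9 and 29.5 under siH1f0, and 76.2 and 89.4 under siControl. In siH1f0 replicate 3 the peak lay outside the promoter itself, which 7 lists covered. A region 35.3 kb before the listed start, chr1:92214517-92218000, and one 80.4 kb inside the gene, chr1:92098098-92101410, were also in all 8 lists.

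Hdac7, the deacetylase gene of endothelium and thymocytes, had 3 regions in all 8 lists, at moderate percentiles. The merged region chr15:97808688-97816551 took in an inner start, but its summits lay about 2.58 kb inside the gene from that start. Its percentiles were 55.2, 95.5 and 86.9 under siJunb, 83.7, 77.7 and 93.6 under siH1f0, and 52.2 and 74.7 under siControl. Of the 4 listed Hdac7 promoters, a pair of neighbouring ones was covered in 6 lists and the outermost in none. The promoter of the inner start was covered in 1 list, siH1f0 replicate 2. The region downstream of the gene, in all 8 lists as well, overlapped Slc48a1, next to Hdac7.

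The 2 cofactor genes had few regions. Lmcd1 had an upstream region in all 8 lists, chr6:112254354-112259155, 18.4 kb before the start, at percentiles 40.8, 96.6 and 54.9 under siJunb, 91.5, 93.0 and 90.5 under siH1f0, and 72.0 and 91.8 under siControl. A second upstream region, chr6:112266327-112269774, 5.47 kb before the start, was in no siJunb list, in all siH1f0 lists at percentiles 92.4, 94.6 and 90.5, and in both siControl lists at 66.7 and 87.6. Its summits fell within 117.5 bp of each other. Mamstr had 1 region, chr7:45642014-45644403, 3.78 kb after its start. That region had a maximum signal of 8 in siJunb replicate 2, of 17, 26 and 14 in the 3 siH1f0 lists, and no peak in either siControl list, and its percentile was 65.2 in the siJunb list and 51.4, 76.2 and 86.9 in the siH1f0 lists.

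**Figure D4:**
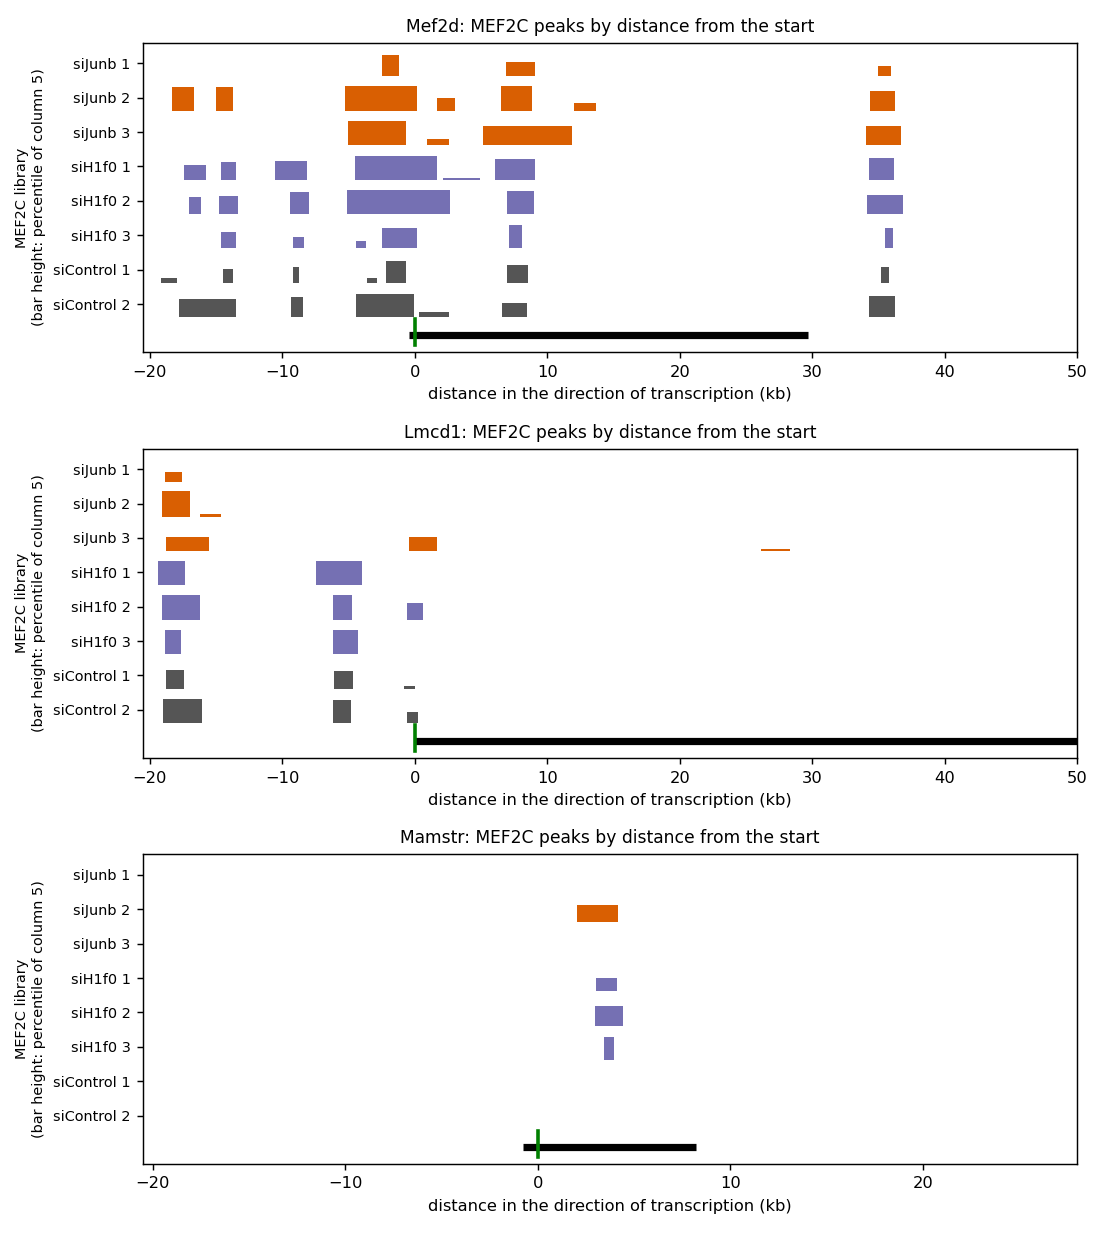
MEF2C peaks in the windows of Mef2d, Lmcd1 and Mamstr by library (rows), against the distance in kb from the start in the direction of transcription, with bar height showing the percentile within the list. The peaks 8.87 kb before Mef2d and 5.47 kb before Lmcd1 are missing from all 3 siJunb libraries, and the Mamstr peak is present in all 3 siH1f0 libraries and in siJunb 2.

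Under siJunb, 3 of the 30 regions of these genes that both siControl lists held were in no siJunb list, against 14.1% of all such regions. This share of 10.0% is near the background. They were the upstream regions of Mef2d and Lmcd1 described above and an Hdac9 region, chr12:34803024-34805132, 113.2 kb from the nearest listed start, which 1 siH1f0 list also held and which stood at percentiles 9.30 and 52.5 under siControl. No region was gained, that is held by all siJunb lists and no siControl list, of 26 regions held by at least 1 siJunb list and no siControl list, against 0.509% of all such regions. The siJunb lists held 18, 24 and 19 of the 30 siControl regions (60%, 80% and 63.3%), against 53.2%, 77.9% and 64.4% of all siControl regions. When peaks had to cover 0.5 of a region, all 3 lost the call, because a siControl peak was then too narrow to count. The Hdac9 region also lost it in the upper part of each list and in lists of equal length, and the Mef2d region with 5 kb on each side. Leaving out a library loosens the rule, so the count of lost regions could then only stay or grow. Leaving out siControl replicate 1 gave 13 and leaving out siControl replicate 2 gave 8. Leaving out siJunb replicate 1 gave 5 and leaving out siJunb replicate 2 gave 8.

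The share of a window under peaks gives 1 value per library. Its median over the 10 genes was 1.54%, 6.02% and 6.99% under siJunb, against 2.49% and 5.79% under siControl, and over all protein-coding genes it was 0%, 2.76% and 1.15% against 0% and 2.56%. For Mef2c it was 1.79%, 1.54% and 1.44% under siJunb, against 2.92% and 5.78% under siControl. All 3 siJunb values were below both siControl values, and the means were 1.59% and 4.35% (exact permutation test, two-sided, p = 0.2, the smallest that 3 against 2 libraries allow; adjusted p = 1). Mef2c was the one gene of the 10 whose groups did not overlap in this comparison with siJunb lower, where 3.00% of 16418 windows with any peak did so. Within each naming series taken apart, the siJunb lists were lower than the siControl list for 4 of the 10 genes (Mef2a, Mef2c, Mef2d and Hdac9), as for 15.5% of the 16418 windows. The number of genes lower in every siJunb library became 3 without siJunb replicate 2 and 4 without siControl replicate 1. No gene of the 10 was higher in every siJunb library, which became 3 without siJunb replicate 1 and 2 without siControl replicate 2.

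Under siH1f0, 1 of 18 regions held by at least 1 siH1f0 list and no siControl list was gained, the Mamstr region, against 2.17% of all such regions. None of the 30 siControl regions was lost, against 1.78% of all such regions. The siH1f0 lists held 28, 30 and 26 of the 30 siControl regions (93.3%, 100% and 86.7%), against 90.7%, 97.1% and 73.4% of all siControl regions. The Mamstr gain was known from earlier work on these lists and is no independent support, and siJunb replicate 2 held the region too. The region was not called gained in the upper part of each list by maximum signal, or when peaks had to cover 0.5 of it. Without siControl replicate 2 the gained count was 6, and without siControl replicate 1, siH1f0 replicate 1 or siH1f0 replicate 2 it was 2. For lost regions, leaving out siControl replicate 1 gave 5, siControl replicate 2 gave 4 and siH1f0 replicate 2 gave 2.

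The median covered share of the 10 genes was 5.14%, 8.16% and 1.87% under siH1f0, against 2.49% and 5.79% under siControl, and for all genes 1.75%, 3.05% and 0% against 0% and 2.56%. Mamstr had 2.17%, 2.97% and 1.08% under siH1f0, against 0 in both siControl lists (exact permutation test, two-sided, p = 0.2, the smallest possible; adjusted p = 1). Its window was 1 of 130 (0.594%) with a peak in all siH1f0 lists and none in siControl. It was the one gene of the 10 that was higher in every siH1f0 library than in either siControl library, where 3.32% of 15291 windows were. That count was 6 without siH1f0 replicate 3 and 6 without siControl replicate 2. The Mef2c share was 4.38%, 8.83% and 1.80% under siH1f0, which overlapped the siControl values of 2.92% and 5.78%. The Hdac9 share was 4.54%, 6.37% and 1.70% under siH1f0, against 1.25% and 3.88% under siControl, which overlapped as well. Within each naming series taken apart, the siH1f0 lists were higher than the siControl list for 5 of the 10 genes (Mef2d, Hdac5, Hdac7, Hdac9 and Mamstr), as for 18.9% of the 15291 windows.

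The knockdowns were also set against each other, siJunb first. Of 18 regions in all siJunb lists, none was absent from every siH1f0 list, against 1.79% of all such regions. Of 33 regions in all siH1f0 lists, 4 were in no siJunb list (12.1%), near the 10.1% of all such regions. They were the upstream regions of Mef2d and Lmcd1, an Hdac4 region 49.9 kb inside the gene (chr1:92128966-92131231) and an Hdac9 region 15.3 kb inside from the inner start (chr12:34511402-34514391). The last pair stood at low percentiles, 41.9, 45.8 and 15.4 for Hdac4 and 31.2, 35.9 and 29.5 for Hdac9 in the siH1f0 lists. The Lmcd1 region was known for this difference from earlier work on these lists. When peaks had to cover 0.5 of a region, all 4 regions lost the call, because a siH1f0 peak was then too narrow to count. The Hdac4, Hdac9 and Mef2d regions also lost it in the upper part of each list, the Hdac4 and Hdac9 regions in lists of equal length, and the Mef2d region with 5 kb on each side, which leaves it outside the window. Leaving out siJunb replicate 2 turned the count of 4 into 10, and leaving out siJunb replicate 1 or siH1f0 replicate 3 gave 7.

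Hdac9 had 0.518%, 1.52% and 1.09% of its window under peaks under siJunb, against 4.54%, 6.37% and 1.70% under siH1f0. Every siJunb value was below every siH1f0 value, with means of 1.04% and 4.20% (exact permutation test, two-sided, p = 0.1, the smallest for 3 against 3; adjusted p = 1). Mef2c was likewise lower in every siJunb library, at 1.59% on average against 5.00% under siH1f0 (exact permutation p = 0.1, adjusted p = 1). Its groups barely separated, with 3640 bp covered in siJunb replicate 1 against 3651 bp in siH1f0 replicate 3 (1.793% and 1.798%). These 2 of the 10 genes compare with 3.43% of 16647 windows, and the count became 4 without siJunb replicate 2 and 5 without siH1f0 replicate 3.

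H1.0, the linker histone that H1f0 encodes, covered a very different share of the windows in each list. In the day 1 lists the median window of the 10 genes was 33.1% covered in replicate 1 and 0.740% in replicate 2, and in the ground-state lists 2.07% in replicate 1 and 37.4% in replicate 2. Over all protein-coding windows the medians were 41.1% and 0.857% at day 1, and 3.43% and 37.7% in the ground state. The list totals were 911 and 28.6 Mb at day 1, and 93.0 and 1109 Mb in the ground state. The high and low lists followed the naming series, 1 of each in both groups, so the groups overlapped for all 10 genes (smallest possible exact permutation p of 0.33 for 2 against 2; adjusted p = 1).

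Hdac4 had the highest H1.0 share of the 10 genes in 3 of the 4 lists, with Hdac9 above it in ground-state replicate 2. Its values were 71.8% and 4.52% at day 1, and 20.8% and 54.8% in the ground state. Hdac9 had 34.9% and 0.690% at day 1, and 0.840% and 63.9% in the ground state. Mef2c had 19.2% and 0.610% at day 1, and 1.28% and 42.2% in the ground state. In the second naming series Hdac9 and Mef2c, with Lmcd1 (31.4% at day 1, 50.4% in the ground state), had less at day 1, and the other 7 genes had more. Within the first naming series 9 of the 10 genes had less at day 1, Lmcd1 alone having more. The direction therefore differed between naming series for 8 of the 10 genes, all but Mef2c and Hdac9, and a change between day 1 and the ground state cannot be told apart from the list lengths here.

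Within the 10 windows, H1.0 peaks covered more of the MEF2C regions than of the rest of the windows in each of the 4 lists. At day 1 they covered 52.5% and 3.21% of the bases of MEF2C regions, against 35.8% and 1.05% of the rest. In the ground state they covered 7.20% and 60.4%, against 4.27% and 48.0% of the rest. Over all MEF2C regions of the genome the shares were 57.6% and 3.29% at day 1, and 7.75% and 61.4% in the ground state, so the 10 genes were close to the genome as a whole. The strongest Hdac9 region was 50.1% and 0% covered at day 1, and 0% and 88.4% in the ground state. The Lmcd1 region absent under siJunb was 56.8% and 0% covered at day 1, and 0% and 84.9% in the ground state. The Hdac4 region held only under siH1f0 and in 1 siControl list had H1.0 peaks in all 4 lists, 100% and 38.9% at day 1, and 49.6% and 100% in the ground state.

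H3K9me3, the mark of constitutive heterochromatin, covered a median of 0% of the 10 windows in both day 1 lists, and 0% and 2.01% in the ground-state lists. The medians of all protein-coding windows were 0% in both day 1 lists, and 0% and 2.33% in the ground-state lists, so the 10 genes were close to the background. Mef2b, Mef2d and Lmcd1 had no H3K9me3 peak in any of the 4 lists, 3 of 10 against 40.1% of all windows. Mef2a had it in all 4, covering 0.600% and 6.66% of its window at day 1 and 1.84% and 9.88% in the ground state. Those Mef2a peaks overlapped at chr7:67330102-67331206, inside the gene. Hdac9 also had it in all 4 lists, at 0.210% and 1.97% at day 1 and 0.750% and 2.71% in the ground state. For all 10 genes the groups overlapped (exact permutation test, adjusted p = 1 wherever a peak existed). MEF2C regions of these genes had 0% of their bases under H3K9me3 in both day 1 lists, and 0% and 1.72% in the ground-state lists. Over all MEF2C regions the shares were 3.08% and 6.32% at day 1, and 2.5% and 7.03% in the ground state, and the difference was not tested.

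**Figure D5:**
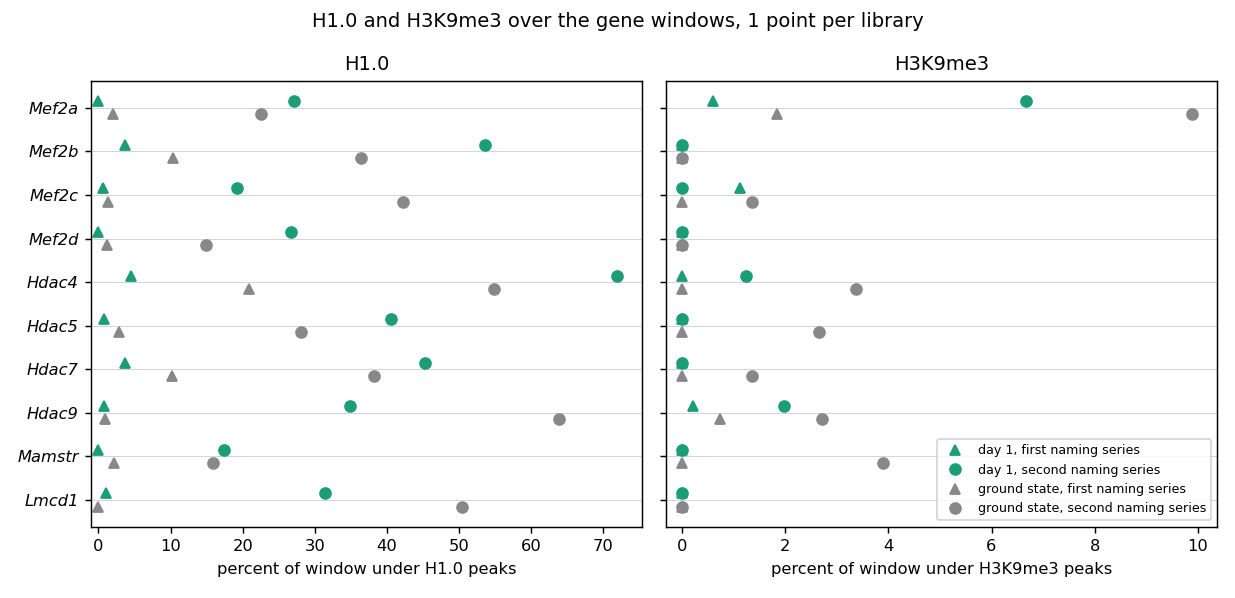
Percent of each gene window under H1.0 peaks (left) and H3K9me3 peaks (right), 1 point per library, with day 1 in green above the ground state in grey and the naming series by shape. The second naming series has the higher H1.0 share in every gene, and H3K9me3 stays under 10% in all windows.

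The genes that work with MEF2 proteins and class IIa deacetylases were counted in the same way. Of 68 genes in 6 lists, 47 had a MEF2C peak in their window in both siControl lists and 35 in all 8, against 39.3% and 24.4% of all windows. Windows were not matched for length, and the part of length in these counts was not tested. The kinases and 14-3-3 chaperones of class IIa deacetylases had 16 and 12 of 20. The highest siControl percentiles were those of Prkd2 (99.3), a protein kinase D that phosphorylates these deacetylases, Camk2a (98.8), a calcium/calmodulin kinase, and Ywhah (98.4), a 14-3-3 protein. The list of calcineurin, the calcium phosphatase that activates MEF2, and its regulators had 4 and 3 of 7 genes. The 3 in all 8 were its inhibitor Rcan1 (94.5), Cabin1 (89.6), a MEF2 repressor, and Rcan2 (85.3). No subunit gene of the phosphatase itself had a peak in all 8. The HDAC3 corepressor complex, through which class IIa proteins act, had 4 and 3 of 6, among them Tbl1xr1 (93.2) and Hdac3 (86.2). MEF2 coactivators and kinases had 8 and 6 of 10, led by Map2k5 (99.2), the kinase upstream of ERK5, then Ncoa2 (93.7) and Smarcd3 (90.4). Known MEF2 targets had 14 and 11 of 19, led by Ppargc1a (98.6), a regulator of mitochondrial genes, Klf6 (98.2) and Nr4a1 (97.2).

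A list of 6 other zinc-dependent deacetylases, which leaves out Hdac3, had fewer peaks. Of these 6 genes (Hdac1, Hdac2, Hdac6, Hdac8, Hdac10 and Hdac11), 1 had a peak in both siControl lists and none in all 8, whereas the 4 class IIa genes each had peaks in all 8. Hdac8 was that 1, at a siControl percentile of 60. Its window, 260.7 kb, was longer than those of the other 5 (45.4 to 67.6 kb), and the class IIa windows ran from 74.4 to 909.5 kb. No test was made of this difference, and the lengths differ with it. Hdac3, counted above with its corepressor complex, went the other way, with a peak in all 8 lists and a window of 58 kb. In the 6 lists, 7 of the 68 genes had a region lost under siJunb: Camk1d, Prkd1 and Prkd3 among the kinases, Rcan2, Hdac8, and the targets Ppargc1a and Dtna. Among all protein-coding genes, 5.83% had such a region in their window. The windows of these 7 genes ran from 111.4 kb (Prkd3) to 701.6 kb (Ppargc1a), against a median of 57.2 kb over all genes. A longer window has more room for a lost region, and the part of length was not tested. None of the 68 had one gained under siJunb, against 1.27% of all genes. Under siH1f0, Ywhah and Ppargc1a had a gained region and Camk2d a lost one, 2 and 1 of 68, against 2.17% and 0.854% of all genes. No test was made of these counts.

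The 2 genes with peaks in some lists only, Mef2a and Mamstr, were set beside all other genes by the bases covered in the 8 lists. Closest to Mef2a were F2r (Pearson r = 0.998), Tent5c (0.995) and Tbc1d5 (0.993), each across 8 lists. Closest to Mamstr were its neighbours Izumo1 and Rasip1 (r = 1 each), whose windows take in the same peak, and Rab42 (0.987) on chromosome 4. These correlations describe likeness over lists that differ mainly in length, and they carry no test.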

How the data were processed

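Mouse fibroblasts were profiled by CUT&RUN, and 16 peak lists were used, 1 per sample. Per the submitters' processing notes, the authors used Bowtie2, SEACR and mm10, whose versions are unknown here. The deposited values are signal, meaning total and highest coverage of a peak, from SEACR's relaxed setting per the file names, with no scaling seen in the values. How IgG was used is not given in the sources. Every sample is labelled with 30 M reads, and aligned depth is unknown. Python 3.11.15 with pandas 2.3.3 and numpy 2.4.6 was used.

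Gene positions and promoters came from RefSeq on GRCm38.p6, which gave no exons here. Peaks of the 8 MEF2C lists that overlapped or touched were merged, and an overlap of 1 bp sufficed for a list to hold a region. A region was gained when every knockdown and no siControl list held it, and lost when both siControl lists and no knockdown list held it. Shares of windows under peaks were compared by exact permutation tests over libraries, two-sided, for every protein-coding gene adjusted by Benjamini-Hochberg, at 0.05. No such test could pass, since the smallest p was 0.2 (3 against 2), 0.1 (3 against 3) or 0.33 (2 against 2). In each comparison 0 windows had an adjusted or an unadjusted p under 0.05. The code was tested on simulated data. The windows were also set to 5 and 50 kb, lists were cut to equal length or to the upper part, and libraries were left out.

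The genes, pathway lists and tests were chosen with earlier results of these data known. Pathway genes were named when they had a gained or lost region, or the 3 highest siControl percentiles in their list. One gene that this rule names is not reported here. Replicate numbers were checked for pairing, as told in the closing section.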

Additional observations from a re-analysis of the deposited data

How the results depend on the processing

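Each region named as gained, lost or found under 1 knockdown alone lost its call when peaks had to cover 0.5 of it. That rule can only take lists away, so no call ended because a peak appeared in a list that had none. The calls ended because a siControl or siH1f0 peak was too narrow for the merged region. The Lmcd1 region, for example, was 3448 bp wide, and its siControl peaks were 1479 and 1375 bp in replicates 1 and 2. Leaving out a library could not take a call away, because it only loosens the rule. Requiring that peaks cover at least 0.5 of a region moved the count held by both siControl lists to 3 of 30, lost under siJunb to 1, gained under siH1f0 to 0, and held by all siH1f0 and no siJunb list to 1. With the upper part of each list by maximum signal, 1 region was gained under siJunb, 1 was in all siJunb and no siH1f0 list, 2 were in all siH1f0 and no siJunb list, 0 genes were higher in every siH1f0 library than in siControl, and 1 was lower in every siJunb library than in siH1f0. With 50 kb on each side, or with lists of equal length, 2 regions were gained under siH1f0.

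Leaving out 1 library gave 37 to 54 regions held by the siControl list that remained, 0 to 3 gained and 4 to 13 lost under siJunb, 1 to 6 gained and 0 to 5 lost under siH1f0, 0 to 1 in all siJunb and no siH1f0 list, and 4 to 10 in the reverse. Leaving out a library loosens these rules, so such counts can only stay or grow. The number of genes lower and higher in every library came to 1 to 4 and 0 to 3 for siJunb minus siControl, 0 to 1 and 1 to 6 for siH1f0 minus siControl, and 2 to 5 and 0 to 2 for siJunb minus siH1f0. For day 1 minus ground state it came to 0 to 9 and 0 to 7 for H1.0, and 0 to 7 and 0 for H3K9me3. No share over all windows or regions is given for the counts with a library left out.

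Within the first naming series, 1 library against 1, siJunb minus siControl was lower in 7 genes and higher in 2, siH1f0 minus siControl lower in 4 and higher in 6, and siJunb minus siH1f0 lower in 9 and higher in 1. Day 1 minus ground state was lower in 9 and higher in 1 for H1.0, and lower in 2 and higher in 1 for H3K9me3. Within the second series, which has more than 1 list of each knockdown, the MEF2C comparisons gave 4 lower and 3 higher, 1 lower and 6 higher, and 5 lower and 2 higher. H1.0 had 3 lower and 7 higher there, and H3K9me3 had 7 lower. No share over all windows is given for any of these counts. With 1 list against 1, nearly every gene with a peak falls lower or higher. The MEF2C lists of the first series also differ in length, with 11731 peaks for siJunb, 17871 for siH1f0 and 14928 for siControl. The part of length was not tested.

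Replicate numbers were not taken to pair the samples. In siJunb minus siH1f0, with 3 pairs, the correlations of deviations were -0.058, 0.174 and -0.034. They were 0.194 and 0.172 for siJunb minus siControl, -0.099 and 0.264 for siH1f0 minus siControl, and 0.282 in both H3K9me3 pairs. Every negative correlation came from a replicate number whose lists were of different naming series. With a replicate block, 6 genes were lower and 2 higher in both pairs of siJunb minus siControl, 9 were higher in siH1f0 minus siControl, and 2 were lower for H3K9me3. For the 9 genes, replicate 1 set a siH1f0 list of the second naming series (22870 peaks) against a siControl list of the first (14928 peaks). That count therefore cannot be told apart from list length, and no share over all windows is given for these counts. For H1.0 the correlation was -0.297, and with the numbers crossed, an alternative chosen after seeing the data, 2 genes were lower. Ranking peaks by summed signal moved 6 of 15 siControl percentiles by more than their spread. The cause of the other changes was not tested. At this number of libraries no difference could pass the threshold.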
